A study of Bos taurus with 79 samples.

Results

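Solute carriers other than the best-known sugar and amino acid transporters were described in bovine endometrium. Members were all probe sets with a single symbol made of SLC, a family number, A and a member number, apart from those of the 11 families 1, 2, 3, 5, 6, 7, 15, 16, 36, 38 and 43 (46 genes) and apart from the probe sets of SLC27A6 and SLC39A2. This rule uses names and no measured value. It took 162 of the 24016 probe sets tested, which represent 115 of 9155 named genes in 31 families. The study comprised 79 Affymetrix arrays, labelled as biological replicates, of tissue from cross-bred beef heifers slaughtered on days 5, 7, 13 and 16 of the cycle or early pregnancy. All heifers were estrus-synchronized, and on each day they formed 4 arms: cyclic with normal progesterone (CN), cyclic with high progesterone (CH), inseminated and found pregnant with normal progesterone (PN) and pregnant with high progesterone (PH). High progesterone was obtained with a PRID, a progesterone-releasing device placed in the vagina on day 3 and left there until slaughter. Each of the 16 groups held 5 arrays, apart from CH on day 7 with 4 arrays (replicates 2 to 5).

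Solute carriers are membrane proteins that move ions, metals, vitamins, nucleosides, lipids and metabolites across the plasma membrane or the membranes of organelles. The endometrium feeds the early embryo through secretions of its glands, so carriers of the epithelium help to set the composition of the uterine fluid, while mitochondrial and lysosomal carriers serve the metabolism of the endometrial cells themselves. Progesterone, made by the corpus luteum, governs endometrial secretion over the days studied.

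Values are deposited log2 levels per probe set, so that a difference of 1 is a 2-fold change. Differences are given ± SE of a limma fit over all 16 groups, and a gene was called changed at a Benjamini-Hochberg adjusted p under 0.05 over all 24016 probe sets. Where a gene has several probe sets, the brightest on average stands for it, and levels of different probe sets cannot be compared, since probes differ in their brightness. A mean under 3 lies near the floor of the values, where differences can be compressed and small ones can depend on the normalization. Of the member probe sets 40.12% had such a mean, against 32.22% of all probe sets, and these included 40 of the 115 genes. Genes called at least once numbered 5 of these 40 dim genes and 57 of the other 75. In strips of whole tissue, fewer cells of a type and less RNA per cell cannot be told apart, and p-values measure only the spread between these samples.

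Some arrays stood apart. The smooth muscle list (9 genes) averaged 11.16 in PN 4 of day 5, 10.76 in PH 5 of day 7 and 12.17 in PH 4 of day 13, and the leukocyte list (11 genes) averaged 7.90 in CH 3 of day 5. The spread of values was narrow in CH 3 of day 7 (SD 2.60) and PH 1 of day 13 (SD 2.68). CN 5 of day 7 lay far from its group mean, and its leukocyte list averaged 5.70, the highest of the day 7 arrays. Of the tissue's markers EPCAM averaged 12.94, KRT18 10.02, the stromal DCN 14.04 and MSX1 12.62, whereas KRT8 at 2.23 and PGR at 2.78 lay near the floor.

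**Figure D1:**
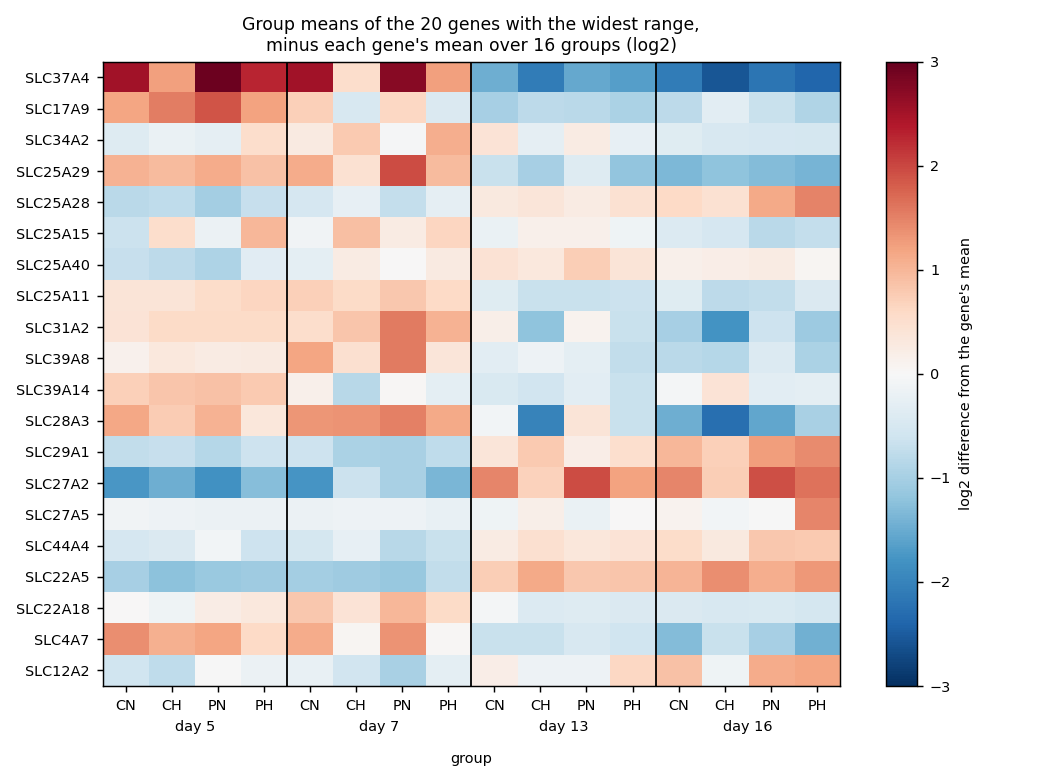
Group means of the 20 member genes with the widest range over the 16 groups, each shown as the log2 difference from the gene's own mean (color) by day and arm and ordered by kind of cargo. The columns of days 5 and 7 differ from those of days 13 and 16 for most of these genes; SLC37A4 has the widest range of group means, 5.52.

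Group means of the 115 genes ranged over more than 2 log2 units for 12 of them, led by SLC37A4 with 5.52, SLC28A3 with 3.79, SLC27A2 with 3.77, SLC25A29 with 3.37 and SLC31A2 with 3.35. Among member probe sets 11.1% had such a range, against 7.26% of all probe sets. Conversely, 37 genes stayed within 0.5. The probe sets with the highest mean levels were those of the adenine nucleotide carrier SLC25A6 (12.91), the mitochondrial phosphate carrier SLC25A3 (11.48), the adenine nucleotide carrier SLC25A5 (11.32), the zinc transporter of the secretory pathway SLC30A5 (10.89), the copper transporters SLC31A1 (10.38) and SLC31A2 (10.37), the nucleotide sugar transporters SLC35A3 (10.31) and SLC35A5 (10.01), the acetyl-CoA transporter SLC33A1 (9.75) and the iron transporter SLC11A2 (9.59).

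Day by day, the change from day 7 to day 13 reached the most members. Averaged over the 4 arms 21 member probe sets rose and 43 fell, 39.5% of members against 36.9% of all probe sets called in either direction (18.8% higher and 18.1% lower). By gene 16 rose and 32 fell, with a median difference of -0.05 over the 115 genes and -0.01 over all probe sets. Of these 48 genes 44 had the same sign in each of the 4 arms, 91.7%, beside 88.1% of all probe sets called, which describes the arms behind the average and is no separate test. In CN heifers alone 13 member probe sets rose and 23 fell, 22.2% of members against 16.2% of all (8.04% higher and 8.19% lower). The share of carriers called was thus near that of the array as a whole, and the results lie in which carriers moved and how far.

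Of 14 phosphate, sulfate and organic anion carriers 4 fell, 0 rose and 10 were not called from day 7 to day 13 over the 4 arms, 28.6% called against 36.9% of all probe sets, with a median of -0.13. SLC37A4 (gene ID 506423), the transporter that brings glucose 6-phosphate into the endoplasmic reticulum for release of free glucose, made the largest change of any member. In CN heifers its log2 levels were 8.41, 8.56, 9.46, 10.01 and 7.37 on day 7 and 4.59, 5.30, 4.84, 4.11 and 5.05 on day 13. Every day 13 array lay below every day 7 array, a change of -3.99 ± 0.41 (adjusted p = 2.24e-11). Over all arms its level ran from 5.36 to 9.75 on day 5 (median 8.58), 5.56 to 10.01 on day 7 (median 8.18), 4.06 to 5.35 on day 13 (median 4.43) and 3.08 to 4.68 on day 16 (median 4.07). Arrays of day 7 and day 13 did not overlap, and the change over the 4 arms was -3.44 ± 0.21 (adjusted p = 2.59e-22). A second probe set of the gene changed by -1.75 ± 0.18, down to a mean of 2.58 near the floor, and the remaining one stayed near the floor on all days, with medians of 2.22 to 2.23, and was not called.

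SLC17A9, the vesicular carrier that loads nucleotides such as ATP for release, stood at 4.03, 4.89, 3.81, 3.60 and 5.92 in CN heifers on day 7 and at 2.60, 2.33, 3.27, 2.67 and 2.71 on day 13. The arrays did not overlap, and since day 13 lay near the floor the change of -1.73 ± 0.32 (adjusted p = 4.12e-05) may be understated. Over the 4 arms the change was -0.99 ± 0.16 (-1.41 ± 0.32 in PN, and -0.31 ± 0.34 in CH and -0.51 ± 0.32 in PH, not called). It had already changed by -1.35 ± 0.16 from day 5 to day 7, from a median of 5.21 to 3.60. SLC17A5, which exports sialic acid from lysosomes, changed by -0.76 ± 0.11 and SLC37A1, a second sugar phosphate exchanger of the endoplasmic reticulum, by -0.58 ± 0.11 from day 7 to day 13.

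**Figure D2:**
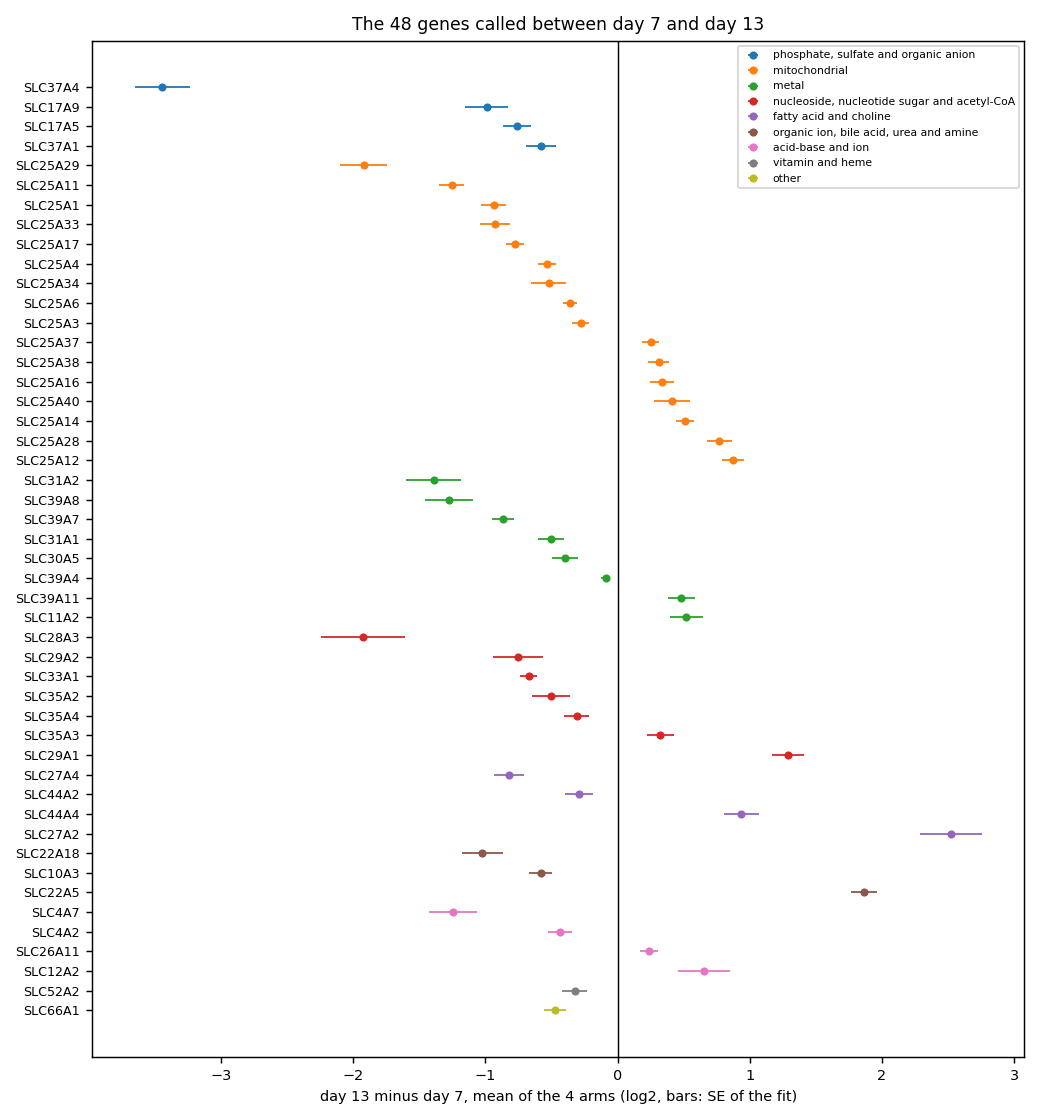
Difference of day 13 minus day 7 (log2, mean of the 4 arms) for the 48 member genes called in this comparison, with bars for the SE of the fit and colors for the kind of cargo. SLC37A4 at -3.44 and SLC27A2 at 2.52 lie at the ends, and 32 genes lie below 0.

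Mitochondrial carriers split. Of 27 genes of family 25 on the array 7 rose and 9 fell between day 7 and day 13 over the 4 arms. Their median was -0.05, and of all probe sets 18.8% were higher and 18.1% lower. SLC25A29, a carrier of basic amino acids, fell most. Its CN arrays read 7.36, 7.72, 7.70, 7.24 and 5.69 on day 7 and 5.19, 4.75, 6.18, 4.93 and 5.83 on day 13. CN 5 of day 7 lay below 2 arrays of day 13, and the other 4 lay above all of them. The change was -1.77 ± 0.35 in CN (adjusted p = 0.000107) and -1.92 ± 0.18 over the 4 arms, and over all arms levels stayed low on day 16 at 4.10 to 5.35. SLC25A11, the oxoglutarate-malate exchanger, changed by -1.26 ± 0.09 with no overlap between day 7 (7.86 to 9.09) and day 13 (6.58 to 7.61). SLC25A33, which carries pyrimidine nucleotides, changed by -0.93 ± 0.11. The citrate carrier SLC25A1 (-0.94 ± 0.09) and the peroxisomal SLC25A17 (-0.78 ± 0.07), both named after their values were seen, fell as well.

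Among the mitochondrial carriers that rose, SLC25A12, the aspartate-glutamate exchanger of the malate-aspartate shuttle, went from 7.51, 7.68, 8.05, 7.64 and 8.40 in CN heifers on day 7 to 8.98, 8.81, 8.997, 9.36 and 8.44 on day 13. Arrays did not overlap, with CN 5 closest on either day. The change was 1.06 ± 0.16 (adjusted p = 4.38e-07), and the gene's other probe sets changed by 1.24 ± 0.21 and 1.27 ± 0.21. SLC25A28, mitoferrin 2, which imports iron into mitochondria, rose on every interval over the 4 arms: by 0.38 ± 0.09 from day 5 to day 7, by 0.77 ± 0.09 to day 13 and by 0.59 ± 0.09 to day 16. Its medians over the 4 days were 7.92, 8.11, 9.01 and 9.54. The last rise was called in PN (0.89 ± 0.18) and PH (1.03 ± 0.18) and not in CN (0.31 ± 0.18) or CH (0.11 ± 0.18). SLC25A14, a relative of the uncoupling proteins, changed by 0.51 ± 0.07 and SLC25A40, a carrier of mitochondrial glutathione import, by 0.41 ± 0.14.

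The adenine nucleotide carriers, which exchange ADP for ATP, are near-identical paralogs, so their probe sets may read each other's transcripts. SLC25A6 changed by -0.36 ± 0.06 and SLC25A4 by -0.53 ± 0.07 between day 7 and day 13. For SLC25A5 the probe sets disagreed. The brighter changed by -0.04 ± 0.11 and the other by -1.70 ± 0.14, with levels of 10.72 to 12.34 on day 7 and 9.13 to 10.69 on day 13 that did not overlap.

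Of 20 metal carriers 6 fell and 2 rose from day 7 to day 13 over the 4 arms, 40% called, near the 36.9% of all probe sets, with a median of -0.08. SLC31A2, the copper transporter CTR2 of internal membranes, ran from 7.92 to 12.48 on day 7 (median 11.58), 8.36 to 11.30 on day 13 (median 10.12) and 7.78 to 10.18 on day 16 (median 9.38). The lowest day 7 array was CN 5, while the other 18 lay at 10.07 or above. The change was -1.39 ± 0.21 to day 13 (adjusted p = 6.86e-08) and -0.72 ± 0.20 to day 16. SLC31A1, the copper importer CTR1, changed by -0.50 ± 0.10 and then by -0.47 ± 0.10. By arm its change from day 7 to day 13 was -1.16 ± 0.21 in CH and -0.86 ± 0.20 in PH, where it was called, and 0.12 ± 0.20 in CN and -0.12 ± 0.20 in PN, where it was not. Whether the arms differ in this change was not tested.

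Of the zinc transporters, SLC39A8, an importer of zinc and manganese, first rose by 0.66 ± 0.18 from day 5 to day 7 and then fell by 1.27 ± 0.18 to day 13, on medians of 9.50, 10.24 and 8.96. In CN its day 7 arrays read 11.01, 10.56, 10.97, 10.85 and 8.68, against 9.10, 9.66, 9.17, 8.65 and 8.01 on day 13. CN 5 of day 7 again lay within the range of day 13. SLC39A7, which releases zinc from the endoplasmic reticulum, changed by -0.87 ± 0.08 with no overlap between day 7 (8.05 to 8.87) and day 13 (7.35 to 7.97). SLC30A5, which loads zinc into the secretory pathway, rose by 0.57 ± 0.10 from day 5 to day 7, then changed by -0.40 ± 0.10 to day 13 and by -0.37 ± 0.10 to day 16. SLC39A11 rose by 0.48 ± 0.10 and SLC11A2, the proton-coupled importer of ferrous iron, by 0.52 ± 0.13 to day 13, both after a fall from day 5 to day 7. SLC39A4 changed by -0.09 ± 0.04 at a mean of 2.65, near the floor, and lost its call with quantile normalization and with median centring. SLC30A1, the zinc exporter of the plasma membrane, was not called (0.03 ± 0.10).

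**Figure D3:**
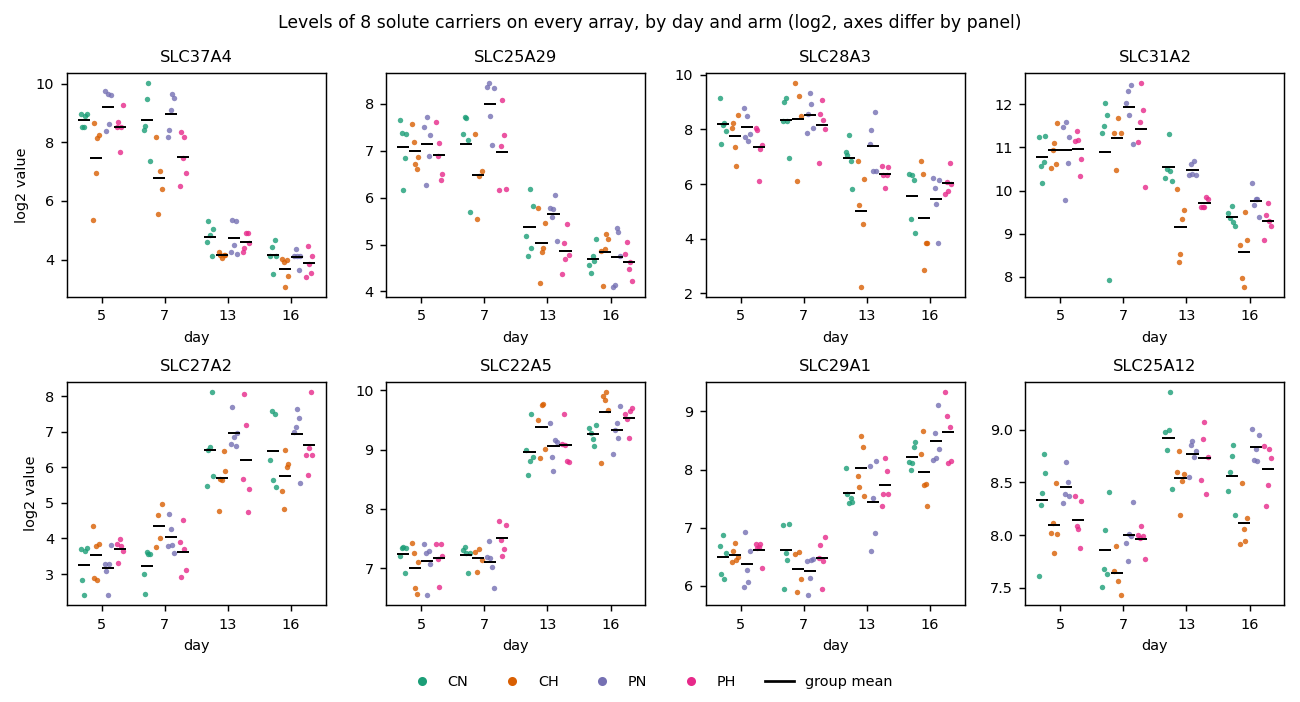
Log2 levels of 8 solute carriers on every array, by day (horizontal axis) and arm (color), with a black line at each group mean. SLC37A4, SLC25A29, SLC28A3 and SLC31A2 are lower and SLC27A2, SLC22A5, SLC29A1 and SLC25A12 higher on day 13 than on day 7; the lowest day 7 point of SLC31A2 is CN 5 at 7.92.

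Nucleoside carriers moved in both directions. SLC28A3, which takes up nucleosides against their gradient with sodium, ran from 6.10 to 9.69 on day 7 (median 8.48) and from 2.24 to 8.63 on day 13 (median 6.55). The groups overlapped widely, the lowest day 13 array was CH 3, and the change over the 4 arms was -1.93 ± 0.32 (adjusted p = 6.5e-07). It was -3.36 ± 0.66 in CH and -1.81 ± 0.62 in PH, and it missed the threshold in CN (-1.41 ± 0.62, adjusted p = 0.124) and PN (-1.13 ± 0.62, adjusted p = 0.245). A further fall by 0.97 ± 0.31 followed to day 16. SLC29A1, the equilibrative transporter that passes nucleosides along their gradient, rose in contrast. In CN it read 7.05, 5.95, 6.56, 6.44 and 7.06 on day 7 and 8.02, 7.57, 7.43, 7.50 and 7.45 on day 13, without overlap. Over the 4 arms it rose by 1.29 ± 0.12 to day 13 (adjusted p = 5.59e-14) and by 0.63 ± 0.12 to day 16. SLC29A2, its close relative, changed by -0.75 ± 0.19.

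Of the 10 genes in this group, which also holds the nucleotide sugar and acetyl-CoA transporters, 2 rose and 5 fell between day 7 and day 13. These counts over the 4 arms stand beside 18.8% of all probe sets higher and 18.1% lower. SLC33A1, which supplies acetyl-CoA to the endoplasmic reticulum, changed by -0.67 ± 0.07. SLC35A2, the UDP-galactose transporter of the Golgi, changed by -0.51 ± 0.14 and SLC35A4 by -0.31 ± 0.10, whereas SLC35A3, the transporter of UDP-N-acetylglucosamine, rose by 0.32 ± 0.10.

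Carriers of fatty acids and carnitine held the largest rises. SLC27A2 (gene ID 535727), which takes up long-chain fatty acids and joins them to coenzyme A, read 2.99, 2.43, 3.62, 3.56 and 3.56 in CN heifers on day 7 and 5.46, 6.48, 6.58, 8.11 and 5.76 on day 13. The arrays did not overlap in CN, and the change was 3.25 ± 0.46 (adjusted p = 1.7e-07). Over the 4 arms levels ran from 2.43 to 4.98 on day 7 and from 4.74 to 8.11 on day 13, and the change was 2.52 ± 0.24. The levels then held at a median of 6.35 on day 16, with a further difference of 0.11 ± 0.23 that was not called. SLC27A4, a fatty acid transporter of the same family, changed by -0.82 ± 0.11 and SLC27A1 by -0.03 ± 0.10, near the floor and not called.

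SLC22A5 (gene ID 541266), the sodium-dependent carnitine importer OCTN2, read 7.31, 7.35, 7.25, 6.93 and 7.26 in CN heifers on day 7 and 8.99, 8.57, 8.81, 9.60 and 8.87 on day 13. Over all arms no day 7 array exceeded 7.80 and no day 13 array lay under 8.57. The change over the 4 arms was 1.87 ± 0.10 (adjusted p = 1.93e-25), with the lowest adjusted p of all members, and the second probe set rose by 1.41 ± 0.15. SLC22A18, an orphan relative, changed by -1.02 ± 0.15 to a mean of 2.40 near the floor. SLC10A3 of the bile acid carrier family changed by -0.58 ± 0.09. Among choline-like transporters SLC44A4, which is linked to acetylcholine synthesis and uptake of thiamine pyrophosphate, rose by 0.93 ± 0.13, and SLC44A2 changed by -0.29 ± 0.11.

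The acid-base and ion carriers were mostly dim, with 10 of 16 genes at a mean under 3. From day 7 to day 13 over the 4 arms 2 rose and 2 fell, while 18.8% of all probe sets were higher and 18.1% lower. SLC4A7, the sodium-bicarbonate cotransporter NBCn1, read 8.21, 9.04, 9.38, 9.29 and 8.33 in CN on day 7 and 6.43, 6.71, 7.42, 6.52 and 8.20 on day 13. The arrays did not overlap, and the change was -1.79 ± 0.36 (adjusted p = 0.000114). Over the 4 arms it was -1.24 ± 0.18, with -1.82 ± 0.36 in PN and, not called, -0.71 ± 0.38 in CH and -0.65 ± 0.36 in PH, and whether the arms differ was not tested. In PH the highest day 13 array was PH 4 at 9.64, which is also the array highest in smooth muscle markers, and the others lay between 6.14 and 7.43. SLC12A2, the sodium-potassium-chloride cotransporter NKCC1 that drives chloride secretion, rose by 0.65 ± 0.20 to day 13 and by 0.63 ± 0.20 to day 16. SLC4A2, an anion exchanger, changed by -0.43 ± 0.09, and SLC26A11 rose by 0.24 ± 0.07. SLC4A4, the electrogenic bicarbonate cotransporter, lay near the floor (2.36) and was never called. Of the vitamin and heme carriers the riboflavin transporter SLC52A2 changed by -0.33 ± 0.10, and of the remaining families the lysosomal amino acid exporter SLC66A1 by -0.48 ± 0.08.

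Markers of endothelium rose over the same interval, 7 of 9 genes, with group means of the list from 5.16 to 5.31 on day 7 and from 5.58 to 5.84 on day 13. Of the epithelial list 3 of 12 genes rose and 4 fell, with group means of 7.97 to 8.13 on day 7 and 8.22 to 8.31 on day 13, and of the stromal list 3 of 10 rose and 3 fell, with 11.03 to 11.16 and 11.02 to 11.13. The part of these cells in the changes of the carriers was not tested.

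Genes that work with these carriers were counted from lists of other genes, over the 4 arms from day 7 to day 13. These counts stand beside 18.8% of all probe sets higher and 18.1% lower, 36.9% in either direction. The small lists of folate and copper genes lie near the share in either direction, although all their calls were falls. Of 23 mitochondrial import and membrane partners 0 rose and 14 fell, with a median of -0.32, among them UCP2 at -1.998 ± 0.216 and the outer membrane channel VDAC2 at -1.04 ± 0.10. Of 14 genes of nucleoside metabolism 1 rose and 7 fell, of 13 genes of nucleotide sugar synthesis 2 rose and 7 fell, and of 11 genes of folate use 0 rose and 4 fell. Of 5 copper handling genes 0 rose and 2 fell, the copper chaperones ATOX1 (-0.76 ± 0.09) and CCS (-0.55 ± 0.12). Of 15 iron handling genes 2 rose and 6 fell, with heme oxygenase HMOX1 at 1.30 ± 0.16 and the iron-binding LTF at -4.15 ± 0.39. Of 15 regulators of chloride and bicarbonate transport 4 rose and 4 fell, of 9 genes of phospholipid and choline metabolism 3 rose and 3 fell, of 8 phosphate and calcium hormones and sensors 2 rose and 0 fell, and of 4 metallothioneins and zinc sensors 1 rose and 0 fell.

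From day 5 to day 7 over the 4 arms 19 member probe sets rose and 13 fell, 19.8% of members against 20.7% of all (8.84% higher and 11.8% lower). By gene 15 rose and 10 fell, with a median absolute difference of 0.11 over the 115 genes, against 0.21 from day 7 to day 13. Besides SLC17A9, the importer of zinc, iron and manganese SLC39A14 fell most, by 1.04 ± 0.18, on medians of 6.53 and 5.54. SLC12A4, a potassium-chloride cotransporter, changed by -0.59 ± 0.12, SLC11A2 by -0.42 ± 0.13 and SLC39A1 by -0.38 ± 0.13. The largest rises were those of SLC25A40 at 0.74 ± 0.14, SLC25A34 at 0.71 ± 0.13, SLC34A2, a sodium-phosphate cotransporter of epithelia, at 0.61 ± 0.21, SLC22A18 at 0.59 ± 0.15 and SLC25A33 at 0.53 ± 0.11. SLC25A34 and SLC22A18 lay near the floor on day 5. The folate transporter SLC46A1 changed by -0.20 ± 0.07, SLC17A5 by 0.34 ± 0.11, SLC26A11 by 0.38 ± 0.07 and SLC10A3 by 0.30 ± 0.09. Of 39 omissions of 1 array, 10 ended the call of SLC46A1, 8 that of SLC34A2 and 6 that of SLC39A1, and SLC46A1 also lost it with median centring and with array weights. Over the same days 5 of 10 stromal markers fell (group means of 11.19 to 11.34 on day 5 and 11.03 to 11.16 on day 7), as did 2 of 9 of smooth muscle (7.91 to 8.82 and 7.32 to 8.26) and 4 of 11 of leukocytes (4.51 to 5.34 and 4.21 to 4.702), while 4 of 12 epithelial markers rose and 2 fell (8.13 to 8.25 and 7.97 to 8.13). Their part in the changes was not tested.

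In CN heifers alone no member passed the threshold between day 5 and day 7, and 0.0291% of all probe sets did. An unadjusted p under 0.05 was reached by 14 member probe sets in limma. Without CN 5 of day 7 the count of calls was 6. With all arrays it was 19 in CH, 6 in PN and 5 in PH, where 15.2%, 4.81% and 4.87% of all probe sets were called. A difference between arms was not tested.

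From day 13 to day 16 over the 4 arms 8 member probe sets rose and 9 fell, 10.5% of members against 8.65% of all (5.03% higher and 3.62% lower). In CN heifers 3 did, against 0.666% of all. SLC25A20, which exchanges acylcarnitine for carnitine across the inner mitochondrial membrane, stood at 8.51, 8.25, 7.81, 8.14 and 7.20 in CN on day 13 and at 6.86, 6.50, 7.15, 7.07 and 6.47 on day 16. Its arrays did not overlap, with CN 5 of day 13 closest to day 16, and the changes were -1.17 ± 0.19 in CN (adjusted p = 0.000143) and -0.73 ± 0.10 over the 4 arms (adjusted p = 8.58e-08). Its second probe set changed by -0.81 ± 0.16 in CN. SLC20A1, a sodium-phosphate cotransporter found in most cells, read 7.60, 7.37, 7.67, 8.17 and 7.38 in CN on day 13 and 8.52, 8.37, 8.33, 8.51 and 8.09 on day 16. Only CN 4 of day 13 lay within the range of day 16, and the gene rose by 0.73 ± 0.16 (adjusted p = 0.0122) and over the 4 arms by 0.59 ± 0.08. From day 7 to day 13 the same gene had fallen by 0.50 ± 0.16 in CN and risen by 0.47 ± 0.17 in CH, and whether these arms differ was not tested.

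Further rises to day 16 over the 4 arms were those of SLC25A38, a glycine carrier of heme synthesis (0.33 ± 0.08), SLC22A5 (0.32 ± 0.10) and SLC27A5 (0.40 ± 0.12). For SLC27A5 the change was 1.44 ± 0.25 in PH, and 0.25 ± 0.25 in CN, -0.25 ± 0.25 in CH and 0.18 ± 0.25 in PN were not called. Its call over the 4 arms was lost without CN 2 or PN 4 of day 16, and in a fit of both days alone. SLC25A4 changed by -0.23 ± 0.07 and SLC37A4 by -0.61 ± 0.21. The call of SLC37A4 (adjusted p = 0.0499) was lost in 30 of 40 omissions of 1 array, and that of SLC28A3 in 12. SLC12A2 lost its call without the 5 arrays far from their group mean (0.51 ± 0.20, adjusted p = 0.0901).

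Pregnancy was compared with the cycle on each day, averaged over both progesterone levels. On day 5, day 7 and day 13 limma called 0 member probe sets, while 0.0167%, 0% and 0% of all probe sets were called, and 12, 14 and 1 members had an unadjusted p under 0.05. On day 16 there were 7 member probe sets of 6 genes higher in pregnant heifers and 0 lower, 4.32% of members against 3.16% of all (2.13% higher and 1.03% lower). Of these 6 genes 4 were mitochondrial carriers, a family with 27 of the 115 member genes. The fit of day 16 alone called 1 member probe set and that with array weights 22. The shares of all probe sets called in these fits were not counted.

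SLC25A28 had the lowest adjusted p of the members on day 16. It read 9.15, 9.37, 9.55, 9.06 and 9.43 in CN and 9.05, 8.77, 9.27, 9.54 and 9.28 in CH, against 9.92, 9.64, 9.86, 9.52 and 10.30 in PN and 10.49, 9.91, 10.44, 10.55 and 9.55 in PH. Cyclic arrays reached 9.55 and pregnant arrays began at 9.52, so that the groups overlapped at their edges only. The difference was 0.77 ± 0.13 (adjusted p = 1.05e-05), and on days 5, 7 and 13 it was -0.07, -0.10 and 0.02 and not called.

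The other genes higher in pregnancy on day 16 had smaller or less even differences. SLC46A3, a lysosomal carrier related to the folate transporter, differed by 0.45 ± 0.11, from cyclic arrays at 2.58 to 3.64 and pregnant arrays at 3.36 to 4.44. SLC25A33 differed by 0.55 ± 0.16 (7.73 to 8.99 against 8.25 to 9.81), and its second probe set by 0.97 ± 0.26. SLC25A5 differed by 0.52 ± 0.15, where CH 3, CH 4 and CH 5 at 9.93, 9.85 and 10.18 lay below all the other day 16 arrays, which began at 11.03. SLC25A12 differed by 0.39 ± 0.11. The other probe sets of SLC25A12, as low as 0.115, and the other one of SLC25A5, at 0.30, were not called. The calls of SLC25A33, SLC25A5 and SLC25A12 were lost in 9, 10 and 8 of 20 omissions of 1 array.

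Within normal progesterone 0 member probe sets were called for pregnancy on day 16, against 0.658% of all, and within high progesterone 9 were called, all higher, against 7.78% of all. The estimate was smaller at normal progesterone for each of the 6 genes, although of these the interaction was called for SLC27A5 only: SLC25A28 by 0.54 ± 0.18 against 1.01 ± 0.18, SLC46A3 by 0.09 ± 0.15 against 0.80 ± 0.15 and SLC27A5 by -0.14 ± 0.25 against 1.55 ± 0.25. SLC12A2 and SLC25A6 were called within high progesterone although not over both (SLC12A2 by 1.32 ± 0.39, adjusted p = 0.0238), where CH arrays split into 7.98 and 8.54 and then 6.52, 6.07 and 5.85. On that day the endothelial list averaged 5.87 and 5.80 in cyclic heifers (CN, CH) and 5.64 and 5.55 in pregnant ones (PN, PH), with 3 of its 9 genes lower in pregnancy, and the epithelial list averaged 8.51, 8.21, 8.37 and 8.67. The part of these cells was not tested.

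**Figure D4:**
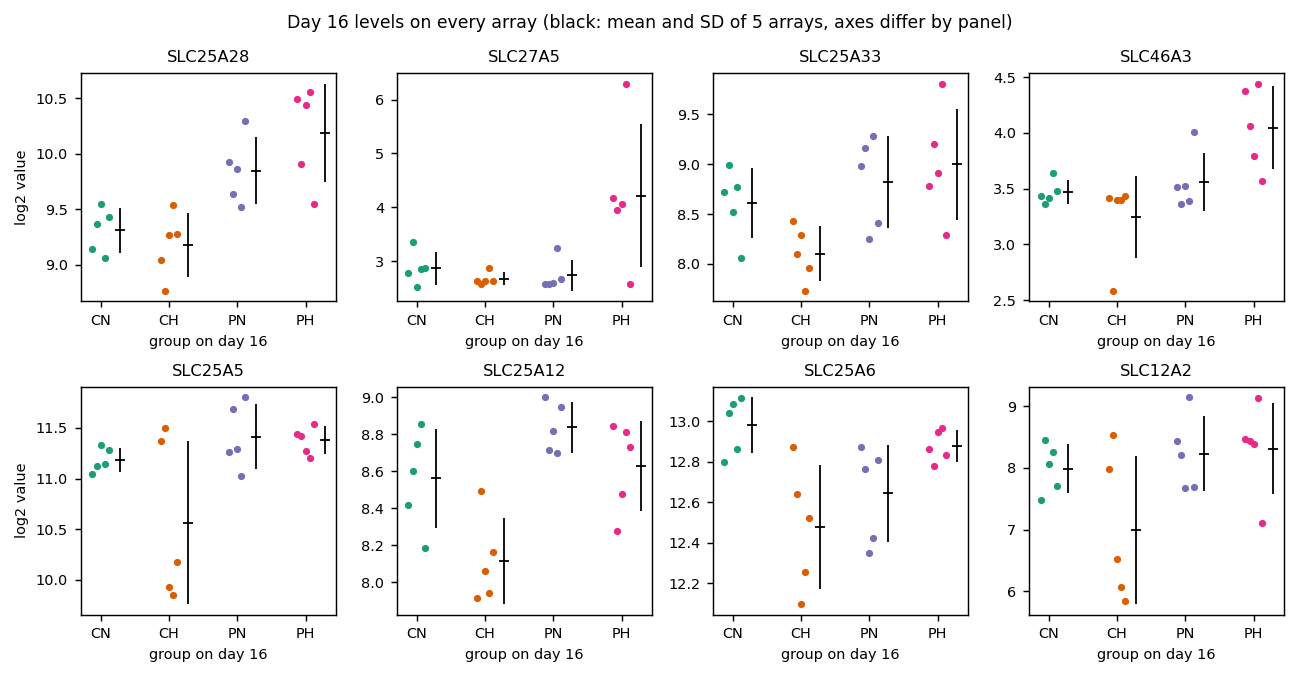
Log2 levels of 8 member genes on every day 16 array in the 4 arms, with the mean and SD of each group of 5 in black. SLC25A28 is higher in both pregnant groups; SLC27A5 leaves the floor in 4 of 5 PH arrays; 3 of 5 CH arrays are low for SLC25A5 and SLC12A2.

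The test of the interaction, the progesterone difference in pregnant minus that in cyclic heifers, called 2 member probe sets on day 16, against 0.87% of all. SLC27A5, a fatty acid transport protein that also activates bile acids in liver, was near the floor in cyclic heifers with normal (2.77, 3.35, 2.51, 2.85 and 2.87) and high progesterone (2.63, 2.57, 2.62, 2.88 and 2.64) and in PN heifers (2.58, 2.58, 2.59, 3.24 and 2.67). In PH it read 4.18, 3.96, 4.06, 6.30 and 2.58, so that 4 arrays lay above all others of that day and PH 5 did not. The interaction was 1.68 ± 0.35 (adjusted p = 0.0154), and the floor can make such a difference of differences too small or too large. Its SE and p come from a single spread estimate shared by all 16 groups and do not reflect the wider spread of the PH arrays. This also holds for the other differences of SLC27A5 that include PH of day 16. SLC25A6 gave 0.74 ± 0.16 (adjusted p = 0.0162), with means of 12.98 (CN) and 12.48 (CH) in cyclic and 12.64 (PN) and 12.88 (PH) in pregnant heifers. Its 2 other probe sets had the opposite sign, -0.12 ± 0.18 and -0.37 ± 0.29, and were not called. Without CH 3 of day 16, or in a fit of day 16 alone, no member was called for the interaction. With array weights 21 were, and the share of all probe sets called in that fit was not counted. On days 5, 7 and 13 limma called 0 members, with 0%, 0.025% and 0.0208% of all probe sets called and 9, 32 and 10 members at an unadjusted p under 0.05. Most of the 32 on day 7 had a mean under 3, such as a probe set of SLC13A4 (-0.13 ± 0.04, mean 1.94). Without CH 5 of day 7 the count of member calls on that day was 18, and without CH 2 it was 14. The share of all probe sets called in these omissions was not counted.

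High progesterone was compared with normal, averaged over cyclic and pregnant heifers. Day 7 had the most member calls: 2 member probe sets rose and 6 fell, 4.94% of members against 4.7% of all (1.85% higher and 2.84% lower). Of the 6 genes 5 fell, and these 5 also fell from day 7 to day 13 over the 4 arms. The day 7 arrays enter both comparisons, so the latter is a description and no separate support. The fit of day 7 alone called 3 member probe sets, and without CH 2 of day 7 the count was 14.

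SLC37A4 differed most. Under normal progesterone its day 7 levels ran from 7.37 to 10.01 (median 8.84, n = 10) and under high progesterone from 5.56 to 8.35 (median 7.01, n = 9). The difference was -1.73 ± 0.30 (adjusted p = 9.87e-05), with -1.98 ± 0.44 in cyclic heifers and, not called, -1.48 ± 0.41 in pregnant heifers. Its second probe set differed by -1.76 ± 0.26, and already on day 5 by -1.18 ± 0.25 (adjusted p = 0.00518), when the brightest probe set differed by -0.98 ± 0.29 and missed the threshold (adjusted p = 0.0831).

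SLC4A7 ran from 8.21 to 9.69 under normal and from 7.27 to 8.38 under high progesterone on day 7 and differed by -1.18 ± 0.26 (adjusted p = 0.00257). Only CN 1 and CN 5 at 8.21 and 8.33 and PN 4 at 8.26 lay within the range of the treated arrays. SLC17A9 ran from 3.55 to 5.92 and from 2.64 to 4.10 and differed by -1.13 ± 0.24. SLC4A7 was not called in cyclic or pregnant heifers alone, and SLC17A9 not in pregnant heifers alone or in the fit of day 7 alone. SLC39A8 differed by -0.95 ± 0.26 (8.68 to 11.54 against 8.30 to 10.25) and SLC25A29 by -0.84 ± 0.26 (5.69 to 8.44 against 5.55 to 8.08). The calls of these last genes were lost without the arrays high in smooth muscle markers, at adjusted p = 0.0699 and 0.096, and without the narrow arrays, at adjusted p = 0.0721 and 0.151. SLC25A29 also lost its call in 11 of 19 omissions of 1 array and with array weights.

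SLC4A11, a plasma membrane relative of the bicarbonate transporters, was the gene that rose, by 0.76 ± 0.19, from near the floor. Its cyclic arrays read 2.76, 2.26, 2.75, 2.74 and 2.75 under normal and 3.10, 3.13, 4.35 and 5.47 under high progesterone, and its pregnant arrays 3.66, 2.76, 2.77, 2.66 and 2.55 against 2.59, 2.74, 3.40, 2.88 and 3.58. All 4 CH arrays lay above all CN arrays, whereas PN and PH overlapped. The call was lost without CH 5. The other member probe set that rose was a second one of SLC27A1, by 0.15 near the floor.

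**Figure D5:**
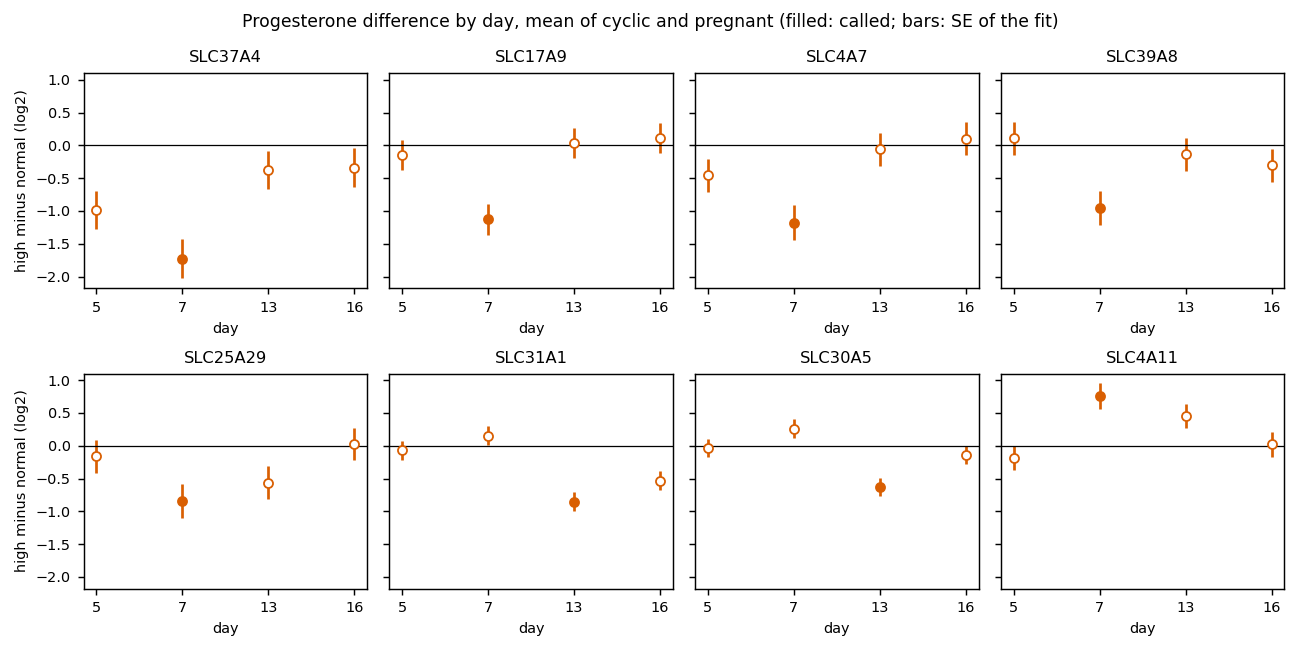
Difference of high minus normal progesterone (log2, mean of cyclic and pregnant) on each day for 8 member genes, with bars for the SE of the fit and filled points where called. The fall of SLC37A4 is -1.73 on day 7, and those of SLC31A1 and SLC30A5 are -0.85 and -0.63 on day 13.

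On day 13 the genes called were carriers of copper and zinc. They were 2 member probe sets, both lower, against 0.441% of all. SLC31A1 ran from 10.32 to 11.14 under normal progesterone (median 10.76) and from 8.71 to 10.44 under high progesterone (median 9.99). Of the treated arrays only CH 1 at 10.44 lay within the normal range, and the difference was -0.85 ± 0.14 (adjusted p = 0.000205). SLC30A5 differed by -0.63 ± 0.14 (adjusted p = 0.00933), from 10.62 to 11.66 against 9.73 to 11.05, and lost its call without CH 3. Both genes lost their call in the fit of day 13 alone and in pregnant heifers alone, and SLC30A5 also in cyclic heifers alone. The related SLC31A2 differed by -1.08 ± 0.29 and missed the threshold (adjusted p = 0.07). The same differences were 0.15 ± 0.15 for SLC31A1 and 0.26 ± 0.14 for SLC30A5 on day 7 and -0.53 ± 0.14 and -0.14 ± 0.14 on day 16, none called, and whether the days differ was not tested.

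On day 5 progesterone called 3 member probe sets, against 0.908% of all. SLC25A15, which brings ornithine into mitochondria, differed by 1.17 ± 0.29 (adjusted p = 0.0268), from 3.80 to 5.07 under normal and 4.10 to 7.11 under high progesterone. SLC44A2 differed by 0.60 ± 0.15 (adjusted p = 0.0276), with 5.96 to 7.44 against 6.59 to 8.05. The calls of SLC25A15 and SLC44A2 were lost in the fit of day 5 alone and in cyclic or pregnant heifers alone. Of 20 omissions of 1 array, 5 ended the call of SLC25A15 and 6 that of SLC44A2. The remaining call was the fall of the second probe set of SLC37A4. On day 16 limma called 0 members, with 0.0958% of all probe sets called and 20 members at an unadjusted p under 0.05. The fit with array weights called 44, and the share of all probe sets called in that fit was not counted.

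Of other genes, progesterone on day 7 raised MT2A, a metallothionein that binds zinc and copper (0.89 ± 0.25), 1 of 4 metallothioneins and zinc sensors measured, and CYBRD1, a ferric reductase (1.31 ± 0.25), 1 of 15 iron handling genes. It lowered the import channel subunit TIMM23 (-0.54 ± 0.11) and the pyruvate carrier subunit MPC1 (-0.84 ± 0.18), the 2 called of 23 mitochondrial partners. Of all probe sets 4.7% were called, and 1 of 15 or 2 of 23 lies near that share.

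Where a gene had several probe sets, they did not always move together. Of 48 pairs of a gene and a comparison with at least 1 call among 31 such genes, all probe sets were called in 15. No 2 called probe sets of a pair differed in sign, but many pairs held only 1 called probe set, where none could. With probe sets not called included, signs differed from day 5 to day 7 for SLC25A6, SLC27A1 and SLC46A1. They also differed for SLC25A34 from day 7 to day 13, SLC37A4 for progesterone on day 7 and SLC25A6 for the interaction on day 16.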

How the data were processed

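Endometrial RNA was labelled with biotin and hybridised to bovine Affymetrix arrays, per the labels' protocols. The deposited values are log2 expression levels per probe set, from 0.95 to 15.37 over 79 arrays, with array medians of 4.71 to 5.12. RMA, GCRMA and limma are named in the submitters' processing notes, with no version and no statement of which values each made, so the background correction behind the log2 floor is unknown. The number of arrays limits the precision.

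From these values 24016 probe sets, without 112 Affymetrix controls, were fitted with limma 3.58.1 in R 4.3.3 (means of the 16 groups, eBayes without trend, 63 residual degrees of freedom), with Benjamini-Hochberg adjustment over all of them and a threshold of 0.05. The fit was tested on simulated data. The platform annotation gave 1 symbol to 13292 probe sets, several to 86 and none to 10638. Names were checked against the gene IDs of a RefSeq table (assembly ARS-UCD2.0), which held all 162 member probe sets under the same symbols. SLC40A1 and SLC44A1 had no probe set with a single symbol and were not analysed here. Differences over 4 arms are means of the 4 differences.

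The members, gene lists and tests were chosen with earlier results of these data known. Genes were named by rule: in each comparison up to 8 rises and 8 falls among the members called, the 10 with the highest mean, the 20 with the widest range, 12 chosen carriers, and members of small families or lists, with exceptions marked. Replicate numbers did not pair arrays: deviations of arrays with the same number had a mean correlation of 0.03, 0.05, 0.02 and -0.01 on days 5, 7, 13 and 16. Other normalizations, a filter on level, array weights, single arms, other probe sets and the omission of arrays were tried. No file of sequences or genome was used.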

Additional observations from a re-analysis of the deposited data

Results flagged for a closer look

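In groups of 4 or 5 arrays, 1 array lay apart from the others by Dixon's criterion in 21 of 304 groups of 19 carriers, 6.91%, where chance gives about 1 group in 20. CN 5 of day 7 was low for SLC25A29 (5.693, the others 7.241 to 7.724), SLC31A2 (7.918, the others 11.33 to 12.02) and SLC39A8 (8.682, the others 10.56 to 11.01). CN 1 of that group was high for SLC25A28 (9.069, the others 7.808 to 8.104), and CN 4 was low for SLC22A5 (6.927, the others 7.254 to 7.354).

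On day 13 SLC20A1 was high in CH 3 (8.579, the others 7.972 to 8.125), SLC4A7 in CH 1 (7.688, the others 6.786 to 7.006), SLC31A2 in CN 3 (11.31, the others 10.21 to 10.5) and SLC29A1 in CN 1 (8.023, the others 7.431 to 7.572). On day 16 SLC31A1 was high in CH 4 (10.29, the others 9.448 to 9.56), SLC30A5 low in CN 4 (10.31, the others 10.63 to 10.7) and SLC22A5 low in CH 1 (8.773, the others 9.663 to 9.965). On day 5 SLC12A2 was low in CH 1 (5.047, the others 6.469 to 6.801) and SLC29A1 in PH 5 (6.309, the others 6.651 to 6.721).

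The other 7 arrays concerned SLC27A5 near the floor: 2.96 in CN 4 of day 5, 2.482 in CN 4 of day 7, 2.799 in CN 3, 3.663 in PH 1 and 2.408 in PN 5 of day 13, and 2.879 in CH 4 and 3.24 in PN 4 of day 16. PH 1 of day 13 is an array with a narrow spread of values.

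The effect of progesterone on day 16 differed between pregnant and cyclic heifers for SLC27A5, by 1.684 on the log2 scale, and for SLC25A6, by 0.7376, both by the interaction term of the limma fit. SLC27A5 lost the call without CH 3 of day 16, and SLC25A6 without CH 3 or PN 3.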

How the results depend on the processing

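Of 135 calls of named genes, quantile normalization kept 133, median centring 132 and array weights 131, and the fit of the days compared alone kept 106. Omissions of 1 array ended a call in 192 cases and kept it in 3869. Named genes kept their direction under the alternatives run, with these exceptions. SLC20A1 from day 7 to day 13 was 0.47 in CH, and SLC27A5 for pregnancy on day 16 was -0.14 at normal progesterone. Another probe set went the other way for SLC46A1 from day 5 to day 7 (0.048) and SLC25A34 from day 7 to day 13 (0.017). So did 1 of SLC37A4 for progesterone on day 7 (0.26) and the others of SLC25A6 for the interaction on day 16 (-0.12 and -0.37). These runs did not set changes over 4 arms against single arms. There SLC31A1 in CN from day 7 to day 13 and SLC27A5 in CH from day 13 to day 16 had the opposite sign. From day 7 to day 13, 44 of 48 called genes had the same sign in all 4 arms. Changes from day 7 to day 13 gave 62 to 69 member probe sets over 4 arms with 1 array left out (64 with all) and 29 to 40 in CN (36 with all). Values near the floor and the number of arrays limit the precision, and the cause of the changes below was not tested.

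The fit of only the days compared called 1 member probe set for pregnancy on day 16 (7 with all days), 0, 3 and 1 for progesterone on days 5, 7 and 13 (3, 8 and 2 with all days) and 0 for the interaction on day 16 (2 with all days). The 1 for progesterone on day 13 was neither SLC31A1 nor SLC30A5, the genes called with all days. Array weights called 11 from day 5 to day 7 in CN, 8 from day 13 to day 16 in CN and 31 over 4 arms, 1 and 22 for pregnancy on days 7 and 16, 5 and 44 for progesterone on days 13 and 16, and 6 and 21 for the interaction on days 13 and 16. The shares of all probe sets called in the fits of the days compared and with array weights were not counted. Median centring called 1 for progesterone on day 16, and testing only probe sets above the median level called 1 for progesterone on day 5. By arm, day 5 to day 7 gave 19 in CH, 6 in PN and 5 in PH, against 15.2%, 4.81% and 4.87% of all probe sets. Day 13 to day 16 gave 1 in CH and 6 in PN, against 0.333% and 1.79%. Progesterone called 0 in cyclic and 0 in pregnant heifers on day 5, against 0.15% of all probe sets in either. On day 7 it called 1 in pregnant heifers, against 0.525%. On day 13 it called 1 in cyclic and 0 in pregnant heifers, against 0.337% and 0.0625%, and on day 16 7 and 2, against 2.92% and 0.104%. Pregnancy on day 16 called 0 at normal progesterone, against 0.658%. In analyses chosen after seeing the data, leaving out arrays far from their group mean gave 7 from day 5 to day 7 in CN and 4 for progesterone on day 13, and leaving out arrays high in smooth muscle markers gave 5 for progesterone on day 7.

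With 1 array left out, day 5 to day 7 in CN called 0 to 6 (6 without CN 5 of day 7, 1 without CN 1 of day 5), day 5 to day 7 over 4 arms 28 to 37, day 13 to day 16 in CN 2 to 3 and over 4 arms 14 to 20. Pregnancy called 0 to 1 on day 7 (1 without CH 2) and 3 to 11 on day 16 (11 without CH 2, 3 without CH 4, 4 without CH 5 or PH 4). Progesterone called 1 to 5 on day 5 (5 without CH 2, 1 without CN 3, PN 2 or PH 1), 5 to 14 on day 7 (14 without CH 2, 5 without PH 5), 1 to 4 on day 13 (4 without CH 1, 1 without CH 3) and 0 to 4 on day 16 (4 without CH 1, 3 without CH 2, 2 without PH 2, PH 4 or PH 5, 1 without CH 5, PN 1 or PH 3). The interaction called 0 to 18 on day 7 (18 without CH 5, 14 without CH 2) and 0 to 5 on day 16 (5 without CH 1, 4 without CH 2 or PH 5, 1 without PN 3, 0 without CH 3).

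The replicate block, the replicate number as a term of the fit, called 64 member probe sets from day 7 to day 13 over 4 arms and 31 from day 5 to day 7, and all 135 calls of named genes were kept. The arrays share only a number.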
